A study of Canis lupus familiaris with 29 samples.

Results

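Interferon-stimulated genes are switched on when a cell senses interferon, and the 9 listed here are MX1, MX2, ISG15, IFIT3, IFI44, IFI44L, OAS1, RSAD2 and IRF7. They were chosen as a list of well-known genes of this response, and each was looked up by its gene name in the table of exon counts. By that rule 7 of the 9 were found among 30951 genes, of which 18239 carry a name. MX1 and IRF7 were not found by name and are not analysed here. All 7 genes found passed the low-count filter of every comparison.

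The study measured gene expression by RNA sequencing in pheochromocytomas and paragangliomas of dogs (PPGLs), tumors of the chromaffin cells of the adrenal medulla and of related cells outside the adrenal gland. Normal adrenal medulla (NAM, 10 samples) was taken from research dogs in good health. The 19 PPGLs arose naturally in client-owned dogs of several clinics, so tumor and normal samples also differ in origin and setting, and these cannot be told apart from the tissue. The authors split the tumors into PPGL group 1 (7 tumors) and PPGL group 2 (12 tumors) from a principal component analysis of these samples, so that a p between the groups describes that split. Per the paper, tumors that were outliers in a principal component plot had been excluded, and 1 of the 19 kept was a paraganglioma. The sample labels give no age, breed, sex or treatment.

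Type I interferons bind a receptor on the cell surface and act through the kinases JAK1 and TYK2 on transcription factors, which then switch on the interferon-stimulated genes. Many of their products hold back viruses, and interferon gamma, made by T cells and NK cells, drives a partly shared set of genes through its own receptor. A whole piece of tissue reports this response in tumor cells, immune cells, vessels and stroma together.

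Total counts ran from 19258054 to 35918182 in NAM, from 18493540 to 31919833 in PPGL group 1 and from 18208718 to 24569667 in PPGL group 2. A level of 3 counts, the limit that a count of 0 allows, equals 0.0835 to 0.165 CPM, a gene's counts relative to the library total, and covers counting error only. Levels below are CPM scaled by TMM, a factor that evens out differences in library composition. The chromaffin markers, with CHGB as the most abundant, summed to a mean of 43391 ± 23657 CPM (SD, n = 10) in NAM and to 52848 ± 34557 CPM (SD, n = 19) in PPGL. The label of normal medulla needs a caveat, because markers of the adrenal cortex summed to 34124 ± 15536 CPM (SD, n = 10) in NAM. The same sum was 393 ± 435 CPM (SD, n = 7) in PPGL group 1 and 6410 ± 8514 CPM (SD, n = 12) in PPGL group 2. CYP17A1, an enzyme of cortisol synthesis, was the most abundant of them in NAM and group 2, and STAR, a cholesterol carrier of steroid-making cells, in group 1, where it made up 87.2% of the sum. The part of the cortical tissue in each difference from NAM was not tested.

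PPGL group 2 replicate 9 stood apart from the other 28 samples. It had the highest level of all 29 samples for 7 of the 7 interferon-stimulated genes, against 515 of all 14766 genes tested (3.49%). The 7 genes summed to 2455 CPM in this tumor and to between 60.8 and 338 CPM in the other 11 tumors of its group. In NAM the sum ran from 201 to 538 CPM and in PPGL group 1 from 61.9 to 355 CPM. Results on the 7 genes are therefore given with and without this tumor, a choice made after seeing the data.

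**Figure D1:**
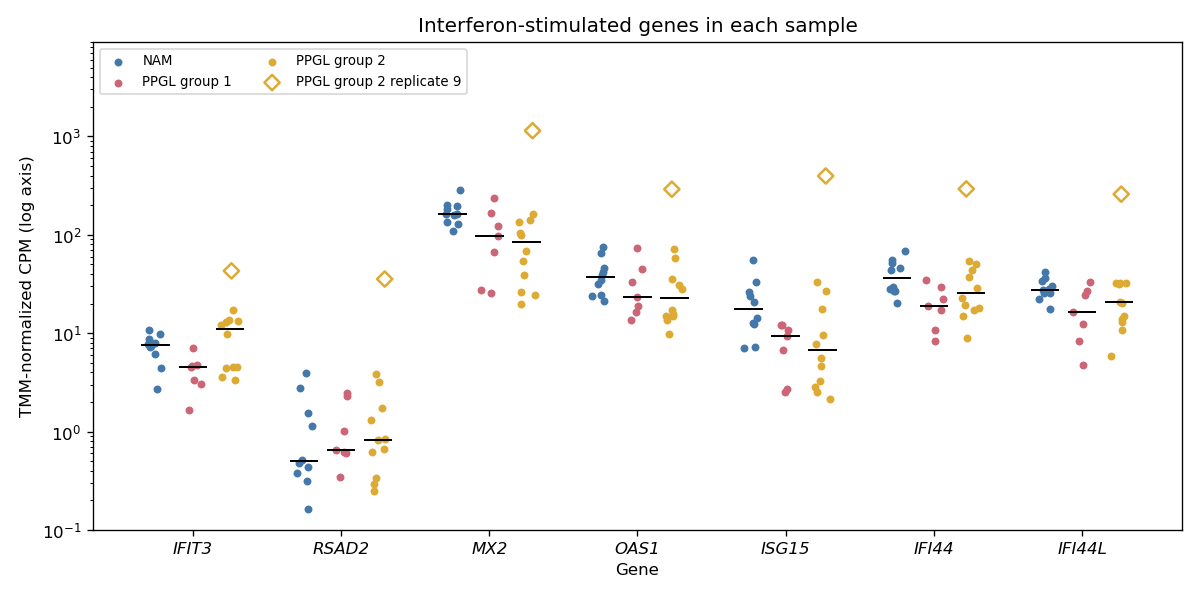
Level of each interferon-stimulated gene in every sample, in TMM-normalized CPM on a log axis; points are samples, black bars are group medians and the open diamond is PPGL group 2 replicate 9. The diamond is the highest point of all 29 samples for each of the 7 genes, and the groups otherwise overlap.

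IFIT3 encodes a protein with tetratricopeptide repeats that works with its relatives against viral RNA. In the count table it is ENSCAFG00000031614 at chr4:84720-117210 on the plus strand of CanFam3.1. IFIT3 ranged from 2.73 to 10.7 CPM in NAM (median 7.55, n = 10), from 1.64 to 7.01 CPM in PPGL group 1 (median 4.51, n = 7) and from 3.34 to 42.9 CPM in PPGL group 2 (median 11.0, n = 12). The 3 groups overlap, and 6 tumors of group 2 lay above every NAM sample while no tumor of group 1 did. Without replicate 9 the highest level in group 2 was 17.3 CPM, in replicate 2. Its exons share 650 bases with exons of IFIT1 on the same strand, named for this overlap, and how the authors counted reads that fit both genes is not stated.

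RSAD2 encodes viperin, an enzyme that makes a nucleotide which stops viral RNA synthesis, and lies at chr17:4487957-4507181 on the plus strand (ENSCAFG00000003293). RSAD2 ranged from 0.164 to 3.93 CPM in NAM (median 0.502), from 0.350 to 2.47 CPM in group 1 (median 0.657) and from 0.251 to 35.5 CPM in group 2 (median 0.831). These are few reads, from 3 counts in NAM replicate 9 to 755 counts in group 2 replicate 9, and only the latter stood outside the range of NAM. Without that tumor the highest level in group 2 was 3.87 CPM.

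MX2 encodes a dynamin-like GTPase that blocks the entry of viral genomes into the nucleus, and lies at chr31:35860590-35951350 on the plus strand (ENSCAFG00000010167). MX2 ranged from 108 to 287 CPM in NAM (median 162), from 25.6 to 237 CPM in group 1 (median 96.4) and from 19.8 to 1140.4 CPM in group 2 (median 84.0). Many tumors were low, since 4 of 7 in group 1 and 8 of 12 in group 2 lay below every NAM sample, and replicate 9 was the single tumor above them. Without it the highest level in group 2 was 162 CPM and the median 68.0 CPM.

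OAS1 encodes an enzyme that senses double-stranded RNA and makes the signal that activates RNase L. It lies at chr26:10385447-10396733 on the plus strand (ENSCAFG00000023556). OAS1 ranged from 21.1 to 75.9 CPM in NAM (median 36.9), from 13.5 to 74.0 CPM in group 1 (median 23.2) and from 9.91 to 290.05 CPM in group 2 (median 22.6). The groups overlap widely, with 3 tumors of group 1 and 6 of group 2 below every NAM sample. Without replicate 9 the highest level in group 2 was 71.0 CPM and the median 17.3 CPM.

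ISG15 encodes a small protein like ubiquitin that is attached to other proteins during the interferon response, and lies at chr5:56236318-56404695 on the plus strand (ENSCAFG00000019348). ISG15 ranged from 7.08 to 55.9 CPM in NAM (median 17.6), from 2.54 to 12.2 CPM in group 1 (median 9.45) and from 2.14 to 396 CPM in group 2 (median 6.75). Here replicate 9 was 70.1 times the median of the other group 2 tumors, which was 5.65 CPM. All 7 tumors of group 1 lay below the median of NAM, and 3 tumors of group 1 and 6 of group 2 lay below every NAM sample. Without replicate 9 the highest level in group 2 was 32.9 CPM. Its exons share 17 bases with exons of TNFRSF4 on the minus strand, named for this overlap, and the strand setting of the counts is unknown.

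IFI44 and IFI44L encode related proteins of the interferon response and lie side by side on the minus strand, at chr6:68364494-68377876 (ENSCAFG00000020342) and chr6:68382317-68398053 (ENSCAFG00000020343). IFI44 ranged from 20.2 to 68.2 CPM in NAM (median 36.8), from 8.29 to 34.9 CPM in group 1 (median 18.8) and from 8.91 to 292 CPM in group 2 (median 25.7). IFI44L ranged from 17.6 to 41.4 CPM in NAM (median 27.7), from 4.80 to 32.8 CPM in group 1 (median 16.6) and from 5.92 to 259 CPM in group 2 (median 20.6). For both genes 4 tumors of group 1 and 5 of group 2 lay below every NAM sample, replicate 9 lay above every NAM sample, and the rest overlapped. Without replicate 9 the highest levels in group 2 were 53.7 CPM for IFI44 and 32.4 CPM for IFI44L.

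Aside from that tumor, the highest library was NAM replicate 7 for 6 of the 7 genes and PPGL group 2 replicate 2 for IFIT3. Per kilobase of exon, the order of median levels in NAM was ISG15 (28.0 CPM per kb), MX2 (26.3), IFI44 (23.6), OAS1 (22.0), IFI44L (14.5), IFIT3 (2.37) and RSAD2 (0.171). The first 4 do not differ beyond their spread, since the SD of ISG15 alone was 23.6 CPM per kb. IFIT3 and RSAD2 stood at the low end in each group. In group 2 without replicate 9 the median per kilobase was 14.7 CPM for IFI44, 11.0 CPM for MX2 and 9.00 CPM for ISG15, again within their spread.

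Whether tumors differ from normal medulla was asked first with all 19 PPGLs against the 10 NAM samples. With all samples, 0 of 7 interferon-stimulated genes passed an adjusted p below 0.05 in edgeR, beside 37.5% of all genes tested, and 0 passed an unadjusted p below 0.05. DESeq2 called 3 of the 7 lower in PPGL, ISG15, MX2 and IFI44, after replacing the counts of replicate 9 as outlying for 6 of them, and the Mann-Whitney test called 1, MX2. Of all genes, DESeq2 called 41.0% in either direction and 17.2% lower, the Mann-Whitney test called 38.9%, and 46.2% had an unadjusted p below 0.05 in edgeR. The median log2 fold change of the 7 genes was 0.16, beside 0.13 for all genes tested.

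Without replicate 9, MX2 and ISG15 were lower in PPGL, 2 of 7 genes beside 15.3% of all genes called lower and 37.8% called in either direction. MX2 fell by 0.94 ± 0.33 (SE) on the log2 scale (adjusted p = 0.0261) and lay below the NAM median in 16 of 18 tumors. With all samples its log2 fold change was −0.25 ± 0.49, and its adjusted p ran from 0.0161 to 0.875 over the alternatives. ISG15 fell by 1.16 ± 0.42 on the log2 scale (adjusted p = 0.0287) and also lay below the NAM median in 16 of 18 tumors. With all samples its log2 fold change was 0.48 ± 0.75, so its direction turned with 1 tumor, and its adjusted p ran from 0.0138 to 0.743 over the alternatives. At an unadjusted p below 0.05, 4 of 7 passed without replicate 9, beside 46.7% of all genes, and the median log2 fold change of the 7 was −0.55. In bulk tissue, fewer cells of a type and less RNA per cell cannot be told apart.

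For the other genes of the list, the values of all PPGLs against NAM did not pass the test in edgeR with or without replicate 9, while DESeq2, with the count of that tumor replaced, called IFI44 (−0.65, adjusted p = 0.0406). In edgeR IFI44 had a log2 fold change of −0.01 ± 0.44 with all samples and −0.65 ± 0.27 (adjusted p = 0.0579) without replicate 9, within a range of 0.0406 to 0.998 over the alternatives. IFI44L had 0.16 ± 0.46 with all samples and −0.55 ± 0.26 without it. RSAD2 had 1.37 ± 0.77 with all samples and 0.06 ± 0.50 without it. All of these are genes of the antiviral response, and the last was the largest positive value of the 7 with all samples. IFIT3 had 0.31 ± 0.40 with all samples and −0.03 ± 0.32 without replicate 9. OAS1 had 0.10 ± 0.44 with all samples and −0.45 ± 0.31 without it. Library-size scaling alone gave IFI44 a log2 fold change of 0.09, a turn in direction.

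The split of the tumors was compared next, 7 tumors of group 1 against 12 of group 2, called at an adjusted p below 0.1. IFIT3 was the gene called, 1 of 7 beside 6.92% of all genes, and it fell by 1.51 ± 0.49 (SE) on the log2 scale in group 1 (adjusted p = 0.0916). All 7 tumors of group 1 lay below the median of group 2. That call was lost on leaving out any of 13 libraries, namely group 1 replicates 1, 3, 4, 5, 6 and 7 and group 2 replicates 2, 4, 5, 6, 7, 9 and 10, with adjusted p from 0.105 to 0.182 and log2 fold changes from −1.54 to −1.12. Without replicate 9 the log2 fold change was −1.12 ± 0.40 (adjusted p = 0.129), 0 of 7 genes were called in edgeR beside 6.76% of all genes in either direction and 2.85% called lower, and 1 of 7 passed an unadjusted p below 0.05 beside 19.0% of all genes. With all tumors 3 of 7, IFIT3, ISG15 and IFI44, had an unadjusted p below 0.05, beside 19.4% of all genes. DESeq2, which replaced the outlying counts of replicate 9 for ISG15, IFI44L, RSAD2 and OAS1 but not for IFIT3, called IFIT3 and no other gene of the 7 (adjusted p = 0.0182), beside 12.2% of all genes. With that replacement ISG15 had a log2 fold change of −0.35. The exact Mann-Whitney test called 0 of 7, with 1 at an unadjusted p below 0.05, beside 2.70% of all genes called, and the adjusted p of IFIT3 ran from 0.0182 to 0.324 over the alternatives. It was 0.102 with library-size scaling and 0.324 in the replicate block. Over the same alternatives the log2 fold change of IFIT3 ran from −1.69 to −1.12.

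The other 6 genes had log2 fold changes from −2.38 (ISG15) to −0.63 (OAS1) between group 1 and group 2 with all tumors, none past the threshold. Without replicate 9 ISG15 had −0.36 ± 0.57, and MX2 and OAS1 turned to 0.43 ± 0.48 and 0.20 ± 0.41. The median of the 7 genes moved from −1.30 to −0.19, beside 0.04 for all genes with and without that tumor. The number of all genes called was itself sensitive to single tumors, at 1015 with all 19, 525 without group 1 replicate 7 and 674 without group 2 replicate 4.

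Each tumor group was also set against the same 10 NAM samples, so that both comparisons share their controls. In group 1, 0 of 7 genes were called in edgeR beside 35.1% of all genes, and 0 passed an unadjusted p below 0.05 beside 44.4% of all genes. DESeq2, which replaced the outlying counts of replicate 9 for ISG15, IFI44L, RSAD2 and OAS1, and the exact Mann-Whitney test each called ISG15 and no other, beside 38.4% and 28.3% of all genes. Leaving out replicate 9, which belongs to group 2 but shares the estimate of spread, brought 2 genes past the threshold, beside 14.3% of all genes called lower. ISG15 then fell by 1.40 ± 0.56 on the log2 scale (adjusted p = 0.0498, range 0.0185 to 0.358 over the alternatives), against −1.41 ± 0.89 with all samples. IFI44 fell by 0.96 ± 0.34 (adjusted p = 0.0294, range 0.0294 to 0.252 over the alternatives), against −0.97 ± 0.53 with all samples. All 7 tumors of group 1 lay below the NAM median for ISG15, IFI44 and IFIT3.

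In group 2, 0 of 7 genes were called in edgeR beside 32.9% of all genes, and RSAD2 alone passed an unadjusted p below 0.05. DESeq2, with counts of replicate 9 replaced for ISG15, IFI44L, RSAD2 and OAS1, called 0 and the Mann-Whitney test called MX2, beside 36.6% and 36.1% of all genes, and 43.6% of all genes had an unadjusted p below 0.05 in edgeR. RSAD2 had a log2 fold change of 1.80 ± 0.79 (adjusted p = 0.0768), which became 2.24 (adjusted p = 0.0391) without NAM replicate 7 and 0.09 ± 0.56 without group 2 replicate 9, with adjusted p from 0.0391 to 0.939 over the alternatives. Without replicate 9 MX2 fell by 1.12 ± 0.38 on the log2 scale (adjusted p = 0.0229, range 0.0229 to 0.999 over the alternatives) and lay below the NAM median in 11 of 11 tumors, 1 of 7 genes called lower beside 14.9% of all genes. With all samples MX2 had −0.04 ± 0.54, and library-size scaling alone turned it to 0.12. The median of the 7 genes was 0.48 with replicate 9 and −0.49 without it, beside 0.09 and 0.08 for all genes. In group 1 the corresponding medians were −0.70 and −0.69, beside 0.13 and 0.14. Library-size scaling alone moved the median of all genes in group 1 against NAM from 0.13 to 0.24.

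**Figure D2:**
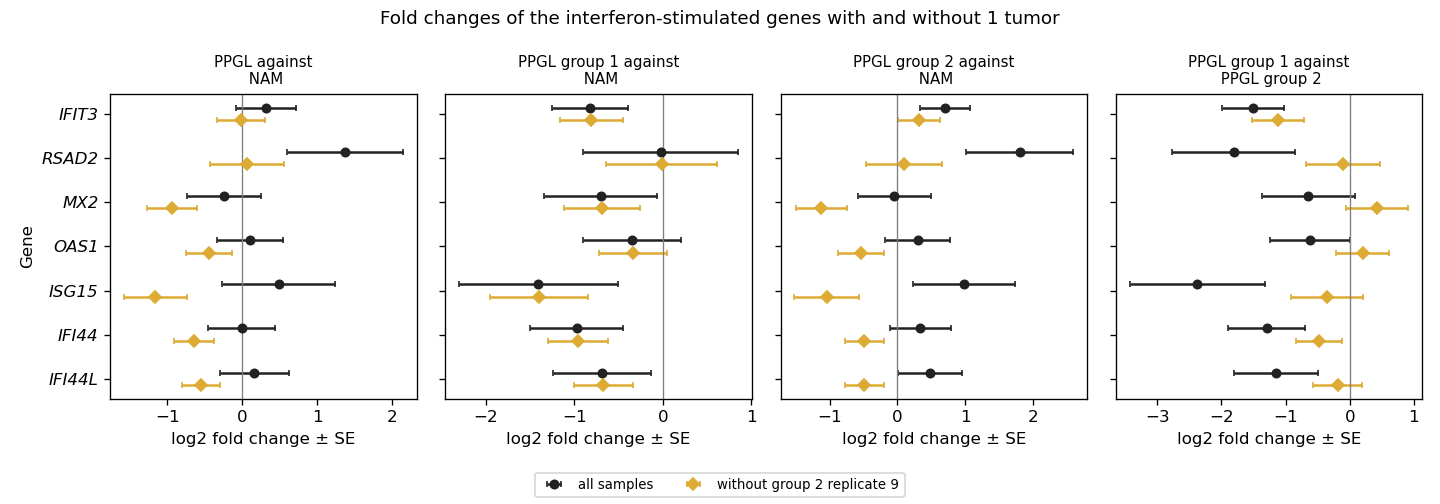
Log2 fold change of each interferon-stimulated gene in the 4 comparisons, with bars of 1 SE, for all samples (black circles) and without PPGL group 2 replicate 9 (yellow diamonds). Values for group 1 against NAM barely move, while ISG15 in PPGL against NAM goes from 0.48 to −1.16.

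How the genes vary together was described within each group, over 21 pairs a group and 63 in all, on log2 CPM, with permutation p adjusted over the 63 pairs. By Spearman's rho 8 pairs passed an adjusted p below 0.05 and by Pearson's r 22 did, and without replicate 9 these counts were 4 and 8. In NAM the median rho was 0.442, and IFI44 with IFI44L had rho 0.879 (permutation p = 0.00176, adjusted p = 0.0185) and r 0.886 (permutation p = 0.000510, adjusted p = 0.00357), with r 0.753 without the 2 samples farthest from the median of IFI44. MX2 with IFI44L had rho 0.879 (permutation p = 0.00143, adjusted p = 0.0185) and r 0.926 (permutation p = 0.000260, adjusted p = 0.00328) in NAM, with r 0.830 without the 2 farthest samples. In PPGL group 1 the median rho was 0.321 and 0 of 21 pairs passed by exact permutation of Spearman's rho, the smallest unadjusted p being 0.0238 and 3 pairs having an unadjusted p below 0.05, while 1 passed by Pearson's r. In PPGL group 2 the median rho was 0.601 with all 12 tumors and 0.482 without replicate 9.

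ISG15 with IFI44 kept its relation in group 2 without that tumor, at rho 0.918 (permutation p = 0.000210, adjusted p = 0.0132) and r 0.898 (permutation p = 0.000200, adjusted p = 0.00546), with r 0.864 without the 2 farthest samples. IFI44 with IFI44L had rho 0.882 (permutation p = 0.000730, adjusted p = 0.0230) and r 0.970 (permutation p = 2.0e-05, adjusted p = 0.00126), with r 0.962 without the 2 farthest samples. IFIT3 and RSAD2 went separate ways in these 11 tumors, at rho −0.06 and r 0.133 (permutation p = 0.860 and 0.689, adjusted p = 0.934 and 0.788), with r 0.332 without the 2 farthest samples.

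The named genes whose levels most resembled the mean of the 7, over 29 samples with group means taken out and among 12803 named genes, were headed, with all samples, by DDX58, which encodes the viral RNA sensor RIG-I (rho 0.842, or 0.793 without replicate 9). IFGGB2 came next (0.827, or 0.815), and then DEXI (0.744), RTP4 (0.717), LGALS9 (0.715), SNX7 (0.709), APOL6 (0.695), LVRN (0.677), DTX3L (0.674) and DHX58 (0.664). Of these 10 genes, 5 belong to the lists of interferon genes or sensors used here. Without replicate 9 the order changed, with IFGGB2 at rank 3, DDX58 at 4, DEXI at 8 and RTP4 at 10. The others then stood at rank 12 (SNX7), 18 (APOL6), 21 (LGALS9), 30 (LVRN), 32 (DHX58) and 38 (DTX3L), all past the first 10. The likeness is a description over samples, with no test.

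Among the interferon ligands, 4 of 14 listed genes were found by name and none passed the low-count filter. IFNB1, IFNA7 and IFNK had 0 counts in all 29 samples, which allows up to 0.165 CPM in the library of lowest depth. IFNG had 11 counts in replicate 9, at most 5 in any other sample and 0 in 17 samples. Of the receptors, 2 of 6 were found, namely IFNGR1 for interferon gamma and IFNLR1 for the lambda interferons. IFNLR1 rose by 3.87 ± 0.61 (SE) on the log2 scale in PPGL against NAM (adjusted p = 2.26e-05), from a mean of 0.180 CPM in NAM to 2.51 CPM in group 1 and 2.81 CPM in group 2 without replicate 9. Its log2 fold change was 3.76 in group 1 and 3.93 in group 2 against NAM, and 3.87 for all PPGLs without replicate 9. Because the NAM mean is close to the level of 3 counts, 0.0835 to 0.156 CPM in NAM, the size of these fold changes is uncertain. IFNGR1 had a log2 fold change of 0.02 ± 0.13.

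The list counts that follow stand beside 37.5% of all genes called in PPGL against NAM, 35.1% in group 1 against NAM, 32.9% in group 2 against NAM and 6.92% between the tumor groups. Of the 5 JAK-STAT transducers found, 2 fell in PPGL against NAM and 0 rose. JAK1 fell by 0.68 ± 0.13 on the log2 scale (adjusted p = 0.000177) and TYK2, the other kinase of the type I receptor, fell by 0.52 ± 0.16 (adjusted p = 0.0112). Both also passed without replicate 9, at −0.69 and −0.50. STAT2 had a log2 fold change of −0.04 ± 0.17, which did not pass the threshold. Among the interferon regulatory factors, 1 of 6 tested rose, IRF1, by 1.31 ± 0.45 with replicate 9 (adjusted p = 0.0219) and by 1.21 ± 0.45 without it, its adjusted p being 0.161 in the replicate block. IRF3, the most abundant, had 0.22 ± 0.17. IRF4, a factor of lymphocytes, fell by 3.45 ± 0.91 in group 1 against NAM, where it went from a mean of 1.24 CPM to 0.110 CPM. The group 1 mean lies within the level of 3 counts there, 0.0940 to 0.162 CPM, so the size of the fall is uncertain.

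Of the enzymes that attach ISG15 to proteins, 3 of 5 listed were found. Of UBA7, UBE2L6 and HERC6, 0 passed in edgeR in PPGL against NAM with all samples, 0 at an unadjusted p below 0.05 and 0 in DESeq2. HERC6, the ligase of this set, fell by 1.58 ± 0.47 in group 1 against NAM (adjusted p = 0.00987) and, without replicate 9, fell by 0.95 ± 0.30 in all PPGLs (adjusted p = 0.0147). Of 14 nucleic acid sensors and adaptors tested, 2 rose in PPGL against NAM, with and without replicate 9. They were TICAM1, the adaptor of TLR3, by 0.72 ± 0.21, and the kinase IKBKE by 0.53 ± 0.16 on the log2 scale (adjusted p = 0.0512 in the replicate block). The median of the 14 was 0.15 with replicate 9 and −0.04 without it.

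Of 4 negative regulators, a list that includes ISG15 itself, SOCS1 fell by 2.10 ± 0.64 on the log2 scale in PPGL against NAM and fell by 2.42 ± 0.63 without replicate 9. SOCS1 encodes an inhibitor of JAK kinases and is itself induced by interferon. Of 13 interferon gamma-induced genes tested, which again include IRF1 and SOCS1, 1 rose and 2 fell, and the third of these was PSMB10, a subunit of the immunoproteasome, at −1.03 ± 0.29. Without replicate 9, 1 rose and 3 fell, with IDO1 added to those that fell. In group 1 against NAM 5 of 13 fell and 0 rose, led by SOCS1 (−3.75 ± 0.92), IDO1, an enzyme of tryptophan breakdown (−2.70 ± 0.82), and ICAM1, an adhesion molecule (−2.42 ± 0.72), and the same number fell without replicate 9. The value of IDO1 ran from −3.52 to −2.35 with single libraries left out.

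Between the tumor groups, 3 of the 13 gamma-induced genes were lower in group 1. ICAM1 fell by 2.90 ± 0.84 (adjusted p = 0.0618), a call lost without group 1 replicate 2 or 7 or group 2 replicate 4 (highest adjusted p 0.111). WARS1, a tRNA synthetase, fell by 0.62 ± 0.19 (adjusted p = 0.0774), a call lost without group 1 replicate 1, 2, 6 or 7 or group 2 replicate 4, 5 or 8 (highest adjusted p 0.140) and with library-size scaling (0.101). CXCL10, a chemokine that draws T cells, fell by 3.95 ± 1.24 (adjusted p = 0.0838), a call lost without group 1 replicate 1, 2, 3, 4, 6 or 7 or group 2 replicate 4, 9 or 11 (highest adjusted p 0.144). All 3 missed the threshold in the replicate block, with adjusted p of 0.536, 0.398 and 0.679.

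Of 37 further type I interferon-stimulated genes, 36 by name with OASL present as 2 entries, 5 rose and 1 fell in PPGL against NAM with all samples, beside 37.5% of all genes called. Without replicate 9, 4 rose and 2 fell, beside 37.8% of all genes. ISG20, an exonuclease, rose by 2.49 ± 0.77, LGALS9, a galectin, by 1.37 ± 0.39, and EPSTI1 by 1.04 ± 0.31 on the log2 scale. TRIM25, a ubiquitin ligase that acts on RIG-I, fell by 0.77 ± 0.22. These 4 kept their calls without any single library, while the log2 fold change of ISG20 ran from 1.85 to 2.89 with single libraries left out. LGALS9 had an adjusted p of 0.0750 in the replicate block. The median of the 37 was 0.27 with replicate 9 and 0.00 without it.

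In group 1 against NAM, 2 of the 37 rose and 3 fell with and without replicate 9, with medians of −0.08 and −0.07. In group 2 against NAM, 7 of the 37 rose and 1 fell with all samples, against 4 and 2 without replicate 9. ISG20 rose by 3.01 ± 0.72 (2.65 ± 0.70 without replicate 9) and LGALS9 by 1.73 ± 0.37 (1.43 ± 0.33). With each library left out in turn, ISG20 ran from 2.32 to 3.41. IFI6, named after its value was seen, rose by 1.55 in edgeR (adjusted p = 0.0141). Its call was kept without any single library, at 1.36 to 1.65, but not in the replicate block (adjusted p = 0.0634). OASL, at 2.25 ± 0.84, and XAF1, at 2.19 ± 0.83, passed with replicate 9 and had 0.62 and −0.13 without it, and their calls were also lost without any of NAM replicates 1, 2, 3, 4, 5, 6, 8, 9 and 10, and for OASL without group 2 replicate 11 (highest adjusted p 0.467 for OASL and 0.868 for XAF1). DESeq2 called neither (adjusted p = 0.448 and 0.850). Between group 1 and group 2 the gene called was HELZ2, which fell by 1.07 ± 0.34 (adjusted p = 0.0848). That call was lost without group 1 replicate 2, 3, 4, 5 or 6 or group 2 replicate 1, 4, 6, 8, 9 or 12 (highest adjusted p 0.138), with library-size scaling (0.147) and in the replicate block (0.387).

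Replicate 9 was the highest of the 29 samples for 27 of the 37 further type I genes and at least 4 times the median of the other group 2 tumors for 20 of them, against 852 of 14766 genes in all (5.77%). STAT2 reached 138 CPM in this tumor. For the gamma-induced genes it was highest for 8 of 13, for the sensors and adaptors for 6 of 14 and for the ISG15 conjugation genes for 2 of 3. Levels in this tumor were uneven across genes. Of genes named after their values were seen, DDX60 stood at 111.8 times that median and ZBP1, a sensor of nucleic acids, at 90.5 times. IFI6, also named after its value was seen, stood at 217 CPM in replicate 9 against a median of 465 CPM in the other tumors of group 2.

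**Figure D3:**
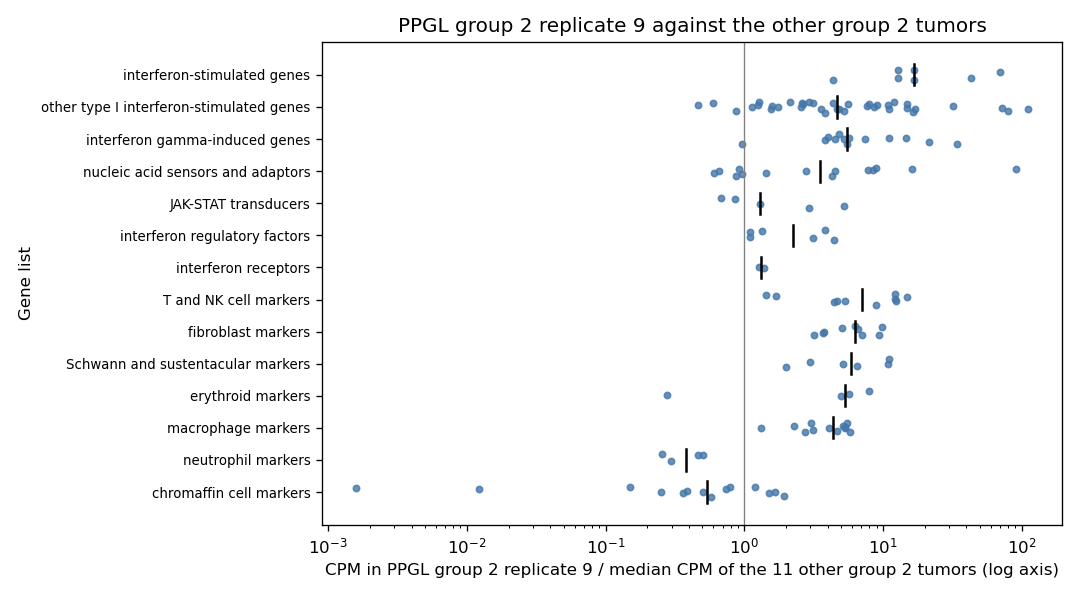
Ratio of the level in PPGL group 2 replicate 9 to the median of the other 11 tumors of group 2, on a log axis. There is 1 point for each gene that passed the filter with replicate 9 included, and a black bar at the median of each list. The median ratio is 16.8 for the 7 interferon-stimulated genes, 7.10 for the T and NK cell markers, 6.28 for the fibroblast, 5.84 for the Schwann and sustentacular and 5.34 for the erythroid markers, 5.55 for the gamma-induced genes, 4.64 for the further type I genes, 4.39 for the macrophage markers and 0.382 for the neutrophil markers.

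Markers of other cells also stood high in replicate 9. Its median ratio to the other group 2 tumors was 7.10 for the T and NK cell markers, 6.28 for the fibroblast, 5.84 for the Schwann and sustentacular and 5.34 for the erythroid markers, each above the 4.64 of the further type I genes. These medians cover markers that passed the filter with replicate 9 included. Those were 10 of 17 T and NK cell and 4 of 6 erythroid markers, against 9 and 3 without it, so these 2 medians are partly set by that tumor. Replicate 9 was the highest of the 29 samples for 0 of the markers tested in each of these lists. Its 13 macrophage markers summed to 2697 CPM, the highest of 29 samples, with C1QC, a complement subunit, as the most abundant gene and none at 0. Its 17 T and NK cell markers summed to 159.6 CPM, the second highest, with PTPRC, the common leukocyte antigen, as the most abundant gene and none at 0. Fibroblast markers, led by COL3A1, summed to 4873 CPM (rank 3) and dendritic cell markers, led by TLR7, to 41.5 CPM (rank 4). Neutrophil markers, led by S100A8, summed to 159.9 CPM (rank 15, with 2 of 8 at 0) and chromaffin markers to 21028 CPM (rank 25). B and plasma cell markers, led by CD79A, summed to 413 CPM (rank 17, with 1 of 9 at 0). CD79A made up 69.6% of that sum in replicate 9 and 92.3% in NAM, so the rank of 17 rests largely on 1 gene.

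PPGL group 2 replicate 11 offers a comparison. Its T and NK cell markers summed to 453 CPM, the highest of 29, and its macrophage markers to 2541 CPM, the second highest, with 1 of 17 and 0 of 13 at 0. Fibroblast markers were also high in this tumor, with COL3A1 at 7960 CPM against a group 2 mean of 1130 CPM. The neutrophil markers summed to 1294 CPM in this tumor, the highest of 29, against a group 2 mean of 583 CPM. They were led by S100A8, at 651.8 CPM against a group 2 mean of 510.6 CPM, which made up 50.4% of that sum. A single gene, CD4, made up 42.3% of the T and NK cell sum of this tumor. Its 7 interferon-stimulated genes summed to 338 CPM, the 7th highest. NAM replicate 7, the highest library after replicate 9 for 6 genes, had macrophage markers of 1198 CPM (rank 7) and endothelial markers of 1410.1 CPM, the highest of 29. The part of these cells in the levels of the 7 genes was not tested.

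Across the comparisons the marker lists moved in their own ways, and counts of markers called and their summed levels did not always point the same way. In PPGL against NAM 5 of 10 T and NK cell markers tested rose, among them CD4, and 1 fell, CD5, named after its value was seen, and without replicate 9 the counts were 4 and 1 of 9. The summed level of all 17, for which no test was run, had a median of 39.3 CPM in PPGL against 57.5 CPM in NAM and a mean of 65.1 CPM against 56.3 CPM. That PPGL mean is raised by a single tumor, group 2 replicate 11, at 453 CPM, so its direction rests on 1 library. CD5 alone made up 52.0% of the sum in NAM, and PTPRC made up 31.1%. The markers that rose were thus low in NAM and could pass the filter through the tumors, so their count is partly set by the filter. In group 1 the sum had a mean of 32.0 ± 18.6 CPM (SD, n = 7) against 56.3 ± 19.0 CPM (SD, n = 10) in NAM, and 1 of 12 markers rose and 1 fell. In group 2 against NAM 6 of 12 rose and 1 fell with all samples, and 5 and 1 without replicate 9. Of the endothelial markers 5 of 10 fell in PPGL against NAM with all samples and 7 of 10 without replicate 9, the setting in which MX2 and ISG15 were also lower, and their part in that result was not tested. The endothelial sum, led by VWF in NAM and by PECAM1 in PPGL, had a mean of 884 ± 278 CPM (SD, n = 10) in NAM and 556 ± 252 CPM (SD, n = 18) in PPGL without replicate 9. Of the macrophage markers 2 of 12 fell, MRC1 and CSF1R, and 0 rose, with and without replicate 9.

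With all samples and then without replicate 9, the count that rose in PPGL against NAM was 3 of 4 and 3 of 4 for the neutrophil markers, 6 of 9 and 5 of 9 for the fibroblast markers, and 7 of 8 and 6 of 8 for the proliferation markers. It was 3 of 4 and 2 of 3 for the erythroid markers and 1 of 4 in both settings for the B and plasma cell markers. The 6 erythroid markers summed to a mean of 2.00 CPM in NAM, of which HEMGN made up 82.7%. HBM, ALAS2 and AHSP, those that rose, were thus near the floor in NAM and could pass the filter through the tumors. Their count is therefore largely set by the filter and decides nothing. The 8 neutrophil markers summed to a mean of 72.6 CPM in NAM, of which S100A8 made up 94.7%. S100A12 and CSF3R, which rose along with S100A8, were thus low in NAM and could also pass the filter through the tumors. The neutrophil count therefore decides nothing either. The dendritic cell markers counted 1 of 6 lower and the adrenal cortex markers 7 of 8 lower in both settings. The chromaffin markers counted 3 up and 1 down of 14, and 4 and 1 without replicate 9. Of the Schwann and sustentacular markers, led by CDH19 in NAM and ERBB3 in PPGL, 0 of 6 were called in edgeR, with 2 at an unadjusted p below 0.05 and 2 called by DESeq2. Between group 1 and group 2, 0 of 10 T and NK cell markers were called in edgeR, with 3 at an unadjusted p below 0.05 and 2 called by DESeq2. Of 13 macrophage markers 0 were called in edgeR, at an unadjusted p below 0.05 or by DESeq2, while 2 of 7 neutrophil markers and 7 of 8 cortical markers were lower in group 1 and 5 of 8 proliferation markers were higher.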

How the data were processed

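Raw exon counts per gene, deposited by the authors for 29 samples, were used as they stand. Per the labels, FastQC, STAR, Picard and HTSeq were used upstream with CanFam3.1, but the name of the deposited table points to featureCounts. Which of them counted, its strand setting and its handling of reads shared by genes such as IFIT3 and IFIT1 are therefore unknown. All genes were fitted in edgeR 4.0.16 (quasi-likelihood F test, TMM, filterByExpr with a minimum count of 10, prior count 0.125, R 4.3.3, limma 3.58.1), with Benjamini-Hochberg adjustment over all genes tested. Calls were made at 0.05, and at 0.1 between the tumor groups. Alternatives were DESeq2 1.42.0, a two-sided Mann-Whitney test (scipy 1.17.1, exact where a group was below 10), other scalings and filters, a replicate block, and each library left out. Correlations used log2 CPM with prior count 2 and 100000 permutations, exact for 7 samples, two-sided. Named were all listed interferon-stimulated genes, all genes of the ligand, receptor, JAK-STAT, regulatory factor and ISG15 conjugation lists, up to 4 called genes of each other list with the largest fold change, each marker list's most abundant gene, and the 10 genes most like the members. Members and lists were chosen with earlier results of these data known. The fits were tested on simulated data, but no outcome of that is given here, so it bears on no result.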

Additional observations from a re-analysis of the deposited data

Results flagged for a closer look

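IFIT3 was the single result singled out for a closer look, because its effect differed between the tumor groups in the test of that difference, with a log2 fold change of −1.51 in PPGL group 1 against PPGL group 2 (adjusted p = 0.0916, 7 and 12 tumors). That call was lost on leaving out any of 13 of the 19 tumors (adjusted p from 0.105 to 0.182), by the exact Mann-Whitney test (0.313), with library-size scaling (0.102) and in the replicate block (0.324). The log2 fold change of IFIT3 ran from −1.69 to −1.12 over the 27 alternatives, so its size was about kept where the call was lost. No sample lay far enough from the rest in the 14 groups of up to 10 samples examined for that; chance picks out about 1 in 20 such groups. Group 2, with 12 tumors, was not examined this way, which leaves replicate 9 outside that test.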

How the results depend on the processing

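Leaving out replicate 9 changed the sign of 10 of 28 member fold changes. Leaving out each other library in turn changed 31 of 714, namely IFI44 in PPGL against NAM 17 times (−0.012 with all samples), and MX2 in group 2 (−0.045) and RSAD2 in group 1 (−0.027) against NAM 7 times each. Reversals in PPGL against NAM: library-size scaling gave IFI44 0.094; DESeq2, with counts of replicate 9 replaced, gave IFI44L −0.55, ISG15 −1.16 and OAS1 −0.47; the replicate block gave IFI44L −0.39, ISG15 −1.17 and OAS1 −0.46. In group 2 against NAM, library-size scaling gave MX2 0.12, DESeq2 gave IFI44L −0.48, ISG15 −1.03 and OAS1 −0.54, and the replicate block gave IFI44 −0.28, IFI44L −0.23, ISG15 −1.13 and OAS1 −0.53. In group 1 against NAM, RSAD2 was 0.10 with library-size scaling and 0.060 in the replicate block. In group 1 against group 2, OAS1 was 0.20 in DESeq2 and 0.35 in the replicate block, where MX2 was 0.15. The cause was not tested. With single libraries left out, fold changes in PPGL against NAM ran from −0.65 to 0.10 (IFI44), −0.55 to 0.23 (IFI44L), −0.026 to 0.39 (IFIT3), −1.16 to 0.77 (ISG15) and −0.45 to 0.25 (OAS1). In group 2 against NAM they ran from −0.49 to 0.46 (IFI44), −0.49 to 0.59 (IFI44L), −1.05 to 1.27 (ISG15), −1.12 to 0.067 (MX2) and −0.54 to 0.45 (OAS1), in group 1 against group 2 from −0.98 to 0.43 (MX2) and −0.98 to 0.20 (OAS1), and in group 1 against NAM from −0.34 to 0.41 (RSAD2). Members called in PPGL against NAM were 3 in DESeq2, 1 by Mann-Whitney and 0 to 2 with libraries left out; in group 1 against NAM 1, 1 and 0 to 2; in group 2 against NAM 1 by Mann-Whitney and 0 to 1. Between the tumor groups 0 were called by Mann-Whitney, with library-size scaling and in the replicate block, and 0 to 1 with libraries left out; genes called were 1793 in DESeq2, 396 by Mann-Whitney, 47 in the replicate block and 525 to 1218 with libraries left out. Correlated pairs were 4 without replicate 9. The replicate block takes sample numbers as blocks, and of 24 same-number pairs 4 correlated above 0.1 (median −0.020). Depth limits RSAD2, at 3 counts in its lowest sample, the ligands, IFNLR1 in NAM and IRF4 in group 1. The reads of IFIT3 shared with IFIT1 and of ISG15 shared with TNFRSF4, the strand setting and cell content were not tested.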
